A study of Mus musculus with 4 samples.

Results

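The separations analysed here run from 1 kb to 1 Mb and cover the fall of Hi-C contact frequency with genomic distance within a chromosome. They were chosen by separation alone, as the distance classes that start at 1 kb or above and below 1 Mb. This gave 12 classes, each counted in 4 combinations of read strands, or 48 of 152 distance rows in a table of 409 rows. The classes are evenly spaced on a log scale, with 4 between 1 and 10 kb, for example. In situ Hi-C, with DpnII as the restriction enzyme, was carried out on E14, a male mouse ES cell line, in 2 culture conditions with 2 biological replicates each. Serum cells were grown in serum with LIF. The 2i cells were also given LIF, and were held for 14 days in a different base medium without serum. It held the MEK inhibitor PD0325901 at 1 μM and the GSK3 inhibitor CHIR99021 at 3 μM, so medium and inhibitors changed together. E14 is a single line, and the comparison therefore covers the culture of 1 genotype.

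Neighboring stretches of chromatin meet far more often than distant ones, and the rate at which contacts decline with separation reflects how the fiber is folded. At the scale of loops and topologically associating domains, cohesin extrudes loops that are held at convergent CTCF sites, and this is known to flatten the decay into a shoulder that ends in a steeper fall. Polycomb complexes additionally compact their target genes, such as the Hox clusters, and link distant targets to each other.

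Pairs from 1 kb to 1 Mb numbered 62881340 and 169558590 in serum replicates 1 and 2, and 143793910 and 108136654 in 2i replicates 1 and 2. All pairs of values below keep this order. The pairs made up 66.4% and 67.7% of all cis pairs separated by at least 1 kb in serum against 62.8% and 65.1% in 2i. The means were 67.1% ± 0.940 for serum and 64.0% ± 1.64 for 2i (SD, n = 2 each), with no overlap between conditions (two-sided exact permutation test, p = 0.333, the lowest that 2 libraries against 2 can reach). The difference was -3.11 percentage points, and -1.95 when 2i replicate 1 was left out. As a share of all unique pairs the difference was -11.5, also without overlap. Those shares were 51.0% and 49.8% in serum against 33.0% and 44.7% in 2i, lowest in 2i replicate 1. Unique pairs also include trans pairs and cis pairs under 1 kb. At this depth, 95% Wilson intervals on the share of a class were no wider than 0.006 percentage points on each side and describe counting error alone, so the spread between replicates sets the precision.

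Separations beyond this range carry the other pairs of the same total. Those from 1 Mb to 31.6 Mb took 27.9% and 26.5% in serum against 26.7% and 26.0% in 2i, so the conditions overlapped. At 31.6 Mb or more the share was 5.73% and 5.74% in serum, compared with 10.5% and 8.86% in 2i. When the farthest pairs were left out of the total, the 1 kb to 1 Mb share differed by -0.359 percentage points and the conditions overlapped. The lower share of the range as a whole thus went with a higher share of the farthest pairs, and since shares add up to a fixed total, fewer contacts at one scale and more at another cannot be told apart.

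The shortest separations, 1 to 10 kb, lie within the length of many single genes and held 8.72% and 10.1% of these pairs in serum against 9.88% and 11.7% in 2i. Within this range, the class from 1 to 1.78 kb held 1.05% and 1.34% in serum against 1.31% and 1.72% in 2i. The next class, to 3.16 kb, held 1.69% and 2.02% in serum versus 1.99% and 2.58% in 2i. In both, serum replicate 2 lay between the 2i libraries, and the conditions overlapped. From 3.16 to 5.62 kb the shares were 2.53% and 2.90% in serum against 2.85% and 3.43% in 2i, and from 5.62 to 10 kb they were 3.45% and 3.85% in serum against 3.73% and 4.01% in 2i. The means of these 4 classes were higher in 2i, but in each the gap between the 2i replicates was larger than the difference of means. Over the range as a whole, the means were 9.42% ± 0.987 for serum and 10.8% ± 1.31 for 2i (SD, n = 2 each; exact permutation test, p = 0.667). The mean in 2i exceeded that in serum by 1.39 percentage points, which fell to 0.466 without 2i replicate 2, rose to 2.31 without 2i replicate 1, and changed sign, to -0.440, as a share of all unique pairs. Against that total the log2 changes at 3.16 to 5.62 kb and 5.62 to 10 kb were also negative, at -0.081 and -0.22.

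From 10 to 100 kb, the scale of many longer genes, 21.6% and 22.8% of the pairs were found in serum and 20.8% and 20.9% in 2i. The class from 10 to 17.8 kb held 4.27% and 4.68% in serum versus 4.41% and 4.39% in 2i, and both 2i libraries fell between the serum libraries. The class from 17.8 to 31.6 kb held 4.94% and 5.29% in serum against 4.87% and 4.79% in 2i. From here on, every class up to 1 Mb was lower in both 2i libraries than in either serum library. The shares were 5.66% and 5.91% in serum against 5.37% and 5.40% in 2i from 31.6 to 56.2 kb, and 6.74% and 6.87% in serum versus 6.21% and 6.32% in 2i from 56.2 to 100 kb. For the range from 10 to 100 kb the means were 22.2% ± 0.811 for serum and 20.9% ± 0.0428 for 2i (SD, n = 2 each; exact permutation test, p = 0.333). The conditions differed by -1.30 percentage points, and by -0.727 when serum replicate 2 was left out. The difference was -0.409 of pairs from 1 kb to 1 Mb and -1.08 of pairs at 10 kb or more, both with overlap. Of all unique pairs it was -4.00, without overlap.

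The 4 classes from 100 kb to 1 Mb, where loops and topologically associating domains lie, held the largest shares. From 100 to 178 kb they were 8.22% and 8.19% in serum against 7.38% and 7.50% in 2i, and from 178 to 316 kb 9.60% and 9.35% in serum against 8.47% and 8.55% in 2i. The gap between conditions was several times that between replicates in both classes. From 316 to 562 kb the shares were 9.86% and 9.42% in serum versus 8.68% and 8.77% in 2i, and from 562 kb to 1 Mb they were 8.40% and 7.91% in serum against 7.54% and 7.65% in 2i. The most populated class was the one from 316 to 562 kb in each of the 4 libraries. For the range from 100 kb to 1 Mb, the shares were 36.1% and 34.9% in serum against 32.1% and 32.5% in 2i. The means were 35.5% ± 0.858 for serum and 32.3% ± 0.296 for 2i (SD, n = 2 each; exact permutation test, p = 0.333). The conditions differed by -3.20 percentage points without overlap. This difference was -2.59 without serum replicate 1 and -3.81 without serum replicate 2.

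Shares were lower in both 2i libraries in 7 of the 12 classes, compared with 40.9% of all 22 classes at 1 kb or more that had at least 10 pairs in every library. None of the 12 was higher in both 2i libraries, compared with 18.2% of the 22, and 5 overlapped. The difference of means was larger than the gap between the replicates of either condition in 6 of the 12. Without serum replicate 2, however, 5 classes were higher in 2i without overlap, and without 2i replicate 1 there were 4. With 1 library against 2, the absence of overlap is reached more easily than with 2 against 2.

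Tested by edgeR's quasi-likelihood method, with Benjamini-Hochberg adjustment over the 22 classes, 5 of the 12 classes had a lower share in 2i, compared with 22.7% of all 22, and 0 had a higher share, compared with 18.2% of all 22, with 0 higher at an unadjusted p under 0.05 as well, and 0 by DESeq2. With the replicate number as a block in the edgeR fit, 3 of the 12 were higher and 3 lower at an unadjusted p under 0.05. At an unadjusted edgeR p under 0.05, 3 were higher and 2 lower without 2i replicate 1, 1 was higher and 1 lower against cis pairs from 1 kb to 1 Mb, and 1 was higher and 0 lower in a fit of the 12 classes alone. The largest decrease was at 178 to 316 kb, where the shares averaged 9.48% ± 0.176 for serum and 8.51% ± 0.0631 for 2i (SD, n = 2 each), a log2 change of -0.16 ± 0.03 (SE; adjusted p = 2.89e-05 in the same edgeR quasi-likelihood test with Benjamini-Hochberg adjustment). At 316 to 562 kb the log2 change was -0.14 ± 0.03 (SE; edgeR quasi-likelihood, Benjamini-Hochberg adjusted p = 4.61e-05). The decrease at 100 to 178 kb was of the same size, at -0.14 ± 0.04 (SE; edgeR quasi-likelihood, Benjamini-Hochberg adjusted p = 0.00129), and at 56.2 to 100 kb it was -0.12 ± 0.05 (SE; edgeR quasi-likelihood, Benjamini-Hochberg adjusted p = 0.0308). The last class, 562 kb to 1 Mb, had a log2 change of -0.10 ± 0.04 (SE; edgeR quasi-likelihood, Benjamini-Hochberg adjusted p = 0.0194). This change was -0.058 without serum replicate 1, and of the 4 fits that left out 1 library, only the one without serum replicate 2 called this class.

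The classes from 1 to 1.78 kb and from 1.78 to 3.16 kb had the largest positive log2 changes, 0.34 ± 0.25 and 0.30 ± 0.18 (SE), and did not pass that test (edgeR quasi-likelihood, Benjamini-Hochberg adjusted p = 0.306 and 0.179). Without 1 library the first ran from 0.14 (without 2i replicate 2) to 0.53 (without serum replicate 2, or 2i replicate 1), and the second from 0.10 (without 2i replicate 2) to 0.47 (without 2i replicate 1). Against all unique pairs these changes were 0.064 and 0.017. On either side of 10 kb, the log2 change was 0.08 ± 0.09 (SE) for the class below and -0.02 ± 0.08 (SE) for the class above (edgeR quasi-likelihood, Benjamini-Hochberg adjusted p = 0.494 and 0.791). Without 1 library these ran from 0.0045 to 0.17 and from -0.089 to 0.044.

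The 5 calls depended on the total used, on single libraries and on how replicates were treated. With the replicate number as a block, 0 of the 12 classes were called, at changes of nearly the same size. Against cis pairs from 1 kb to 1 Mb, or against all unique pairs, 0 of the 12 classes were called, and with DESeq2 or against cis pairs at 10 kb or more there were 3. The total also moved the size of the change, which at 178 to 316 kb was -0.087 against cis pairs from 1 kb to 1 Mb, -0.094 against those from 1 kb to 31.6 Mb and -0.46 against all unique pairs. Without 2i replicate 1 there were 0 calls and without 2i replicate 2 there were 2, compared with 4 without serum replicate 1 and 5 without serum replicate 2. Each fit without 1 library took its spread from the condition that kept 2 libraries, so its count of calls rests on that spread. The calls lost without 2i replicate 1 kept changes of nearly the same size, for example -0.15 at 178 to 316 kb and -0.14 at 316 to 562 kb. The test pools its estimate of spread over the 22 classes, and the classes of a library are not independent, so its p-values may be too small.

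To describe the shape of the decay apart from the farthest pairs, shares were also taken of the pairs from 1 kb to 1 Mb alone. Pairs from 1 to 10 kb then made up 13.1% and 14.9% in serum against 15.7% and 18.0% in 2i, a difference of means of 2.84 percentage points. Pairs from 10 to 100 kb made up 32.5% and 33.6% in serum versus 33.2% and 32.1% in 2i, and pairs from 100 kb to 1 Mb made up 54.3% and 51.5% in serum against 51.1% and 49.9% in 2i. The shortest range was higher in 2i and the longest lower, each without overlap (exact permutation test, p = 0.333), whereas the middle range overlapped (p = 0.667, exact permutation test). Of the 12 classes, 4 were higher in both 2i libraries, all from 1 to 10 kb, 4 were lower, all from 56.2 to 562 kb, and 4 overlapped. The median separation was 122 and 107 kb in serum against 105 and 99.3 kb in 2i. For the median, serum replicate 2 lay nearer to the 2i libraries than to serum replicate 1.

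Contact density, the number of pairs per bp of separation for every 1000000 cis pairs at 1 kb or more, fell steadily along the 12 classes. In the first class it was 13.5 and 17.2 in serum versus 16.8 and 22.1 in 2i. From 10 to 17.8 kb it was 5.48 and 6.01 in serum against 5.66 and 5.64 in 2i. From 100 to 178 kb it was 1.06 and 1.05 in serum against 0.948 and 0.964 in 2i. Of these classes, the 4 libraries were closest, relative to their level, at 10 to 17.8 kb. The last class had densities of 0.192 and 0.181 in serum versus 0.172 and 0.175 in 2i, and the fall from the first class to the last was 70.1-fold and 95.1-fold in serum against 97.7-fold and 126-fold in 2i. The fold fall was larger in both 2i libraries, but serum replicate 2 and 2i replicate 1 differed by less than the replicates of either condition.

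The slope of log10 density on log10 separation steepened from range to range in every library. From 1 to 10 kb it was -0.309 and -0.385 in serum against -0.392 and -0.509 in 2i, with means of -0.347 ± 0.0542 and -0.451 ± 0.0829 (SD, n = 2 each; exact permutation test, p = 0.333). The difference of -0.104 was -0.0449 without 2i replicate 2, -0.0653 without serum replicate 1 and -0.162 without 2i replicate 1. From 10 to 100 kb the slope was -0.738 and -0.781 in serum versus -0.805 and -0.789 in 2i, with means of -0.759 ± 0.0306 and -0.797 ± 0.0111 (SD, n = 2 each; exact permutation test, p = 0.333). The difference of -0.0377 was -0.0160 without serum replicate 1 and -0.0593 without serum replicate 2. The decay below 100 kb was steeper in both 2i libraries in each of these ranges, although the difference from 1 to 10 kb was below the gap of 0.117 between the 2i replicates, and that from 10 to 100 kb below the gap of 0.0433 between the serum replicates. From 100 kb to 1 Mb the conditions overlapped, at -0.984 and -1.02 in serum versus -0.985 for both 2i libraries (exact permutation test, p = 1), and the difference of 0.0154 became 0.0321 without serum replicate 1 and -0.00123 without serum replicate 2. Over all 12 classes, the slope was -0.672 and -0.717 in serum against -0.729 and -0.768 in 2i, and the difference of -0.0538 was -0.0315 without serum replicate 1 and -0.0342 without 2i replicate 2. For the slopes from 1 to 10 kb, from 10 to 100 kb and over all 12 classes alike, serum replicate 2 lay nearer to a 2i library than replicates of either condition lay to each other.

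Local slopes between neighboring classes resolve this further. Across 1.78 kb, the shortest step, the slope was -0.167 and -0.281 in serum against -0.272 and -0.294 in 2i. It steepened to -0.762 and -0.809 in serum versus -0.831 and -0.793 in 2i, across 31.6 kb. This was the steepest step from 10 to 100 kb in every library except 2i replicate 2, whose steepest was across 17.8 kb, at -0.847. Across 100 kb the slope became shallow again, at -0.656 and -0.694 in serum against -0.698 and -0.702 in 2i, before the decay steepened to -1.28 and -1.30 in serum against -1.24 and -1.24 in 2i across 562 kb. From 31.6 kb to 1 Mb, each of the 4 libraries therefore had its shallowest step at 100 kb. The steepest step from 1 kb to 1 Mb was at 562 kb in each.

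Of the 11 steps, 5 were steeper in both 2i libraries, compared with 28.6% of all 21 steps at 1 kb or more, and 1 was shallower, also compared with 28.6%. Without serum replicate 2 there were 10 steeper steps, and without serum replicate 1 there were 2 shallower ones, but overlap is less likely with 1 library against 2. The steeper steps were the 4 from 3.16 to 17.8 kb and the one across 100 kb, and only across 17.8 kb did the difference, -0.0712, exceed the gap between the replicates of each condition (0.0396 in serum and 0.0191 in 2i). Across 3.16 kb, serum replicate 2 and 2i replicate 1 were almost equal, at -0.373 and -0.374. Across 10 kb, for example, the slope was -0.631 and -0.663 in serum against -0.709 and -0.841 in 2i (exact permutation test, p = 0.333). The difference of -0.128 was -0.0618 without 2i replicate 2 and -0.194 without 2i replicate 1. Leaving out 2i replicate 2 also took the difference across 3.16 kb from -0.103 to -0.0374, and that across 5.62 kb from -0.148 to -0.0520. Without 2i replicate 1 these differences became -0.17 and -0.245. Across 100 kb the difference of -0.0252 was -0.00638 without serum replicate 1 and -0.0440 without serum replicate 2. The shallower step was across 562 kb, where the mean was -1.29 ± 0.0181 in serum and -1.24 ± 0.00609 in 2i (SD, n = 2 each; exact permutation test, p = 0.333), and the step just beyond the range, across 1 Mb, was shallower in 2i as well, at -1.56 and -1.57 in serum against -1.50 and -1.50 in 2i.

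The height of the shoulder was then measured as the ratio of density to a straight line, on log scales, through the class that starts at 10 kb and the one that starts at 562 kb. This measure needs no total, and was chosen after the decay had been seen. It was highest at 178 to 316 kb in each library, at 1.39 and 1.37 in serum versus 1.31 and 1.31 in 2i. The mean was 1.38 ± 0.00919 in serum and 1.31 ± 0.000705 in 2i (SD, n = 2 each; exact permutation test, p = 0.333), a difference of -0.0711, and replicates differed by 0.0130 in serum and 0.000996 in 2i. At 100 to 178 kb it was 1.31 and 1.30 in serum against 1.23 and 1.24 in 2i, and at 316 to 562 kb it was 1.29 and 1.28 in serum against 1.24 and 1.24 in 2i. In all 6 classes between the anchors, both 2i libraries were lower. With the upper anchor moved to the class that starts at 1 Mb, the height at 178 to 316 kb was 1.80 and 1.77 in serum versus 1.64 and 1.65 in 2i, a difference of -0.137. With the lower anchor at 17.8 kb it was 1.36 and 1.35 in serum against 1.30 and 1.31 in 2i, a difference of -0.0556, and with that anchor at 31.6 kb it was 1.34 and 1.33 in serum versus 1.29 and 1.28 in 2i, a difference of -0.0480. The conditions did not overlap with any of these anchors.

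Read strand shows at which separations the 4 strand combinations are equally frequent, as ligation products are expected to be, at 25% each. The cause of unequal shares was not tested. From 1 to 1.78 kb, inward-facing pairs made up 25.9% and 25.4% in serum against 26.2% and 26.6% in 2i, and outward-facing pairs 23.9% and 25.2% in serum against 23.9% and 22.9% in 2i. The ratio of inward to outward pairs was 1.08 and 1.01 in serum versus 1.10 and 1.16 in 2i in this class. It was 1.02 and 1.03 in serum against 1.04 and 1.04 in 2i from 5.62 to 10 kb. In each of the 4 classes up to 10 kb, 2i replicate 2 had the largest departure from equal shares. The largest departure of any strand combination in any library was 2.10 percentage points at 1 to 1.78 kb, 0.537 at 5.62 to 10 kb and 0.0701 at 31.6 to 56.2 kb. With same-strand pairs alone, 5 classes were called lower in 2i by edgeR, and the slope from 1 to 10 kb differed by -0.109.

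Libraries also differed in other ways. Of all cis pairs, 10.7% and 14.6% in serum against 35.1% and 20.6% in 2i were under 1 kb apart, and duplicates made up 55.4% and 19.3% of mapped pairs in serum and 16.9% and 23.2% in 2i. Trans pairs made up 13.9% and 13.9% of unique pairs in serum and 19.1% and 13.5% in 2i. Pairs rescued from reads that span a ligation made up 29.9% and 27.3% of unique pairs in serum and 24.7% and 35.3% in 2i. The part of these measures in the shares and slopes was not tested.

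The mm9 genome sets the scale of these separations. DpnII cuts at GATC, and the 21 chromosomes held 6415166 such sites with a median of 261 bp between neighbors, so the shortest class spans several fragments. Of 22367 protein-coding genes, 31.2% were 1 to 10 kb long, 49.7% were 10 to 100 kb and 10.5% were 100 kb to 1 Mb, with a median of 15.4 kb. Pairs of polycomb target genes fall in different classes. By annotated gene starts, Hoxb1 and Hoxb13, at opposite ends of the HoxB cluster of body-axis patterning genes, lie 171 kb apart on chromosome 11 (96227066 and 96055630), in the class from 100 to 178 kb.

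More distant pairs reach the end of the range. En2, a homeobox gene of the midbrain and hindbrain, and Shh, which encodes a secreted signal, lie 301 kb apart on chromosome 5 (28492236 and 28793641), in the class with the highest shoulder. Skida1 and Bmi1, which encodes a subunit of polycomb repressive complex 1, lie 628 kb apart on chromosome 2 (17970678 and 18598645), in the last class. Shh and the homeobox gene Mnx1 lie 1011 kb apart, just outside it. The counts are summed over the genome and hold no position, so the values of a class say nothing of these loci.

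The same counts set how many pairs a contact map would hold. A pixel of 10 kb by 10 kb held on average 19.6 and 56.7 pairs in serum versus 48.9 and 35.3 in 2i at 10 to 17.8 kb. At 178 to 316 kb, where the shoulder was highest, it held 2.48 and 6.38 pairs in serum against 5.29 and 3.87 in 2i. Counting error alone gives such a pixel a coefficient of variation of 63.5% and 39.6% in serum against 43.5% and 50.8% in 2i. In the last class, a pixel held 0.689 and 1.71 pairs in serum versus 1.50 and 1.10 in 2i. Serum replicate 1 was the sparsest library in each of the 12 classes, with 2.48 pairs per pixel where serum replicate 2 had 6.38.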

How the data were processed

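Using distiller, the authors mapped the reads to mm9 and dropped pairs of matching coordinates as duplicates. The deposited values are raw counts, the number of read pairs in a class, given separately for the 4 libraries. The paper states that it did not use pairs of low mapping quality. Whether that applies to these counts is not given in the sources used here. Distance classes were checked to add up to the cis pairs in all 4 libraries. The members and lists were chosen with earlier results of these data known.

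Counts were summed over the 4 strand combinations of a class. Shares are of cis pairs at 1 kb or more. Density is pairs per bp of separation. Slopes are least squares fits of log10 density on the log10 geometric midpoint of the classes. Conditions were compared by two-sided exact permutation over the 6 ways to assign libraries, and class counts with edgeR 4.0.16 (quasi-likelihood test, cis pairs at 1 kb or more as library size, Benjamini-Hochberg adjustment over all classes with no library under 10 counts, threshold 0.05). DESeq2 1.42.0 was the alternative. The fit and the slopes were tested on simulated counts drawn independently for each class, so dependence between the classes of a library was not covered. All 12 classes are named, with full statistics for the 2 largest changes in each direction and the classes beside 10 and 100 kb; those for the last class were added after its value was seen, since it was called. Site and gene positions come from the NCBIM37 (mm9) sequence and its GENCODE annotation, and Skida1 was matched through a RefSeq synonym. R 4.3.3, Python 3.11.15 and scipy 1.17.1 were used. Alternatives were other totals, normalizations, strand combinations and density units, a block for the replicate number, and the removal of single libraries. Contact maps were not analysed here.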

Additional observations from a re-analysis of the deposited data

How the results depend on the processing

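Differences are 2i minus serum. The total of pairs from 1 kb to 31.6 Mb, the fit of 12 classes alone, densities per DpnII site pair for slopes, the limits of the cumulative counts and all settings of shoulder height were chosen after seeing the data. For shares, slopes and shoulder height, the exact permutation p of 2 libraries against 2 cannot pass a threshold, so overlap of the conditions was compared. Density per possible position pair or site pair divides all libraries alike, so it cannot change a slope difference.

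Of the 12 classes, 5 were called lower in 2i; 0 were called against pairs from 1 kb to 1 Mb or all unique pairs (which moved the median log2 change by -0.31) or in the fit of 12 alone, 3 against pairs at 10 kb or more, against pairs from 1 kb to 31.6 Mb or by DESeq2, and 0 to 5 without 1 library. None was called higher in any of these fits. At an unadjusted p under 0.05, 3 were higher and 2 lower without 2i replicate 1, 1 higher and 1 lower against pairs from 1 kb to 1 Mb, and 1 higher and 0 lower in the fit of 12 alone. With the replicate number as a block (replicate block), 0 were called, and 3 were higher and 3 lower at an unadjusted p under 0.05, while the log2 change at 178 to 316 kb was -0.16 as before; replicates of equal number deviated together with r = 0.827 over 12 classes and 0.164 over 22, and 2 pairs do not establish a pairing. The paired differences of shares equal the unpaired ones.

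The 1 to 10 kb share difference of 1.39 was 2.84 of pairs from 1 kb to 1 Mb and 1.96 of pairs from 1 kb to 31.6 Mb, now without overlap, and -0.440 of all unique pairs (0.466 to 2.31 without 1 library). The 10 to 100 kb share difference of -1.30 was -0.409, -1.08 and -0.415 of pairs from 1 kb to 1 Mb, at 10 kb or more and from 1 kb to 31.6 Mb, each with overlap, and -4.00 of all unique pairs (-1.87 to -0.727 without 1 library). The 1 kb to 1 Mb share difference of -3.11 was -0.359 of pairs from 1 kb to 31.6 Mb, with overlap, and -11.5 of all unique pairs (-4.27 to -1.95 without 1 library). That of 100 kb to 1 Mb was -2.43, -1.91 and -7.09 of pairs from 1 kb to 1 Mb, from 1 kb to 31.6 Mb and of all unique pairs (-3.81 to -2.59 without 1 library). None of these 3 overlapped, nor did the -4.00 and -11.5. Of pairs from 1 kb to 1 Mb, 4 classes were lower and 4 higher in both 2i libraries; 4 were higher of pairs from 1 kb to 31.6 Mb (7 to 8 lower and 0 to 5 higher without 1 library).

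Without 1 library, slope differences ran from -0.162 to -0.0449 for 1 to 10 kb, -0.0593 to -0.0160 for 10 to 100 kb, -0.00123 to 0.0321 for 100 kb to 1 Mb (-0.00123 without serum replicate 2) and -0.0761 to -0.0315 for 1 kb to 1 Mb. Local slopes ran from -0.0440 to -0.00638 across 100 kb and 0.0384 to 0.0640 across 562 kb, with 5 to 10 steeper and 1 to 2 shallower steps. They changed sign across 56.2 kb (-0.0409 to 0.00252) and 178 kb (-0.0377 to 0.00219) without serum replicate 1, and across 316 kb (-0.00362 to 0.0305) without serum replicate 2. Shoulder height ran from -0.0776 to -0.0646 and the inward share from 1 to 10 kb from 0.212 to 0.457.

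The log2 change changed sign at 3.16 to 5.62 kb (-0.081) and 5.62 to 10 kb (-0.22) against all unique pairs, and at 10 to 17.8 kb against pairs from 1 kb to 1 Mb (0.046), from 1 kb to 31.6 Mb (0.038) and in the fit of 12 alone (0.046), by DESeq2 (0.017) and without serum replicate 2 (-0.089 to 0.044 without 1 library). The causes were not tested.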
